A study of Homo sapiens with 12 samples.

Results

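Proteins that enter the endoplasmic reticulum (ER) pass through a membrane channel and fold inside the lumen, and the 45 genes described here encode that machinery. They were chosen by name, as luminal chaperones, disulfide isomerases and oxidases, subunits of the translocon and its associated TRAP complex, signal peptidase subunits, components of ER-associated degradation (ERAD), and the stress sensors with XBP1. Of the 45, 39 had a probe under their symbol in the array annotation used here, and 38 were measured, meaning detection at p under 0.01 on at least 3 of 12 arrays. They are 38 of 9409 measured genes, each read from its probe of highest mean signal. OS9, a lectin of ERAD, was left out with detection on 2 arrays, and just inside that threshold lay SEC63 with 3 and SSR3 with 4. PDIA3, SEL1L, ERN1, SEC61G, HERPUD1 and ERP44 were not analysed here.

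The study profiled RNA of the cytoplasmic fraction, obtained with digitonin, from the human breast carcinoma line Cal51 on Illumina bead arrays. The first group received the siRNA against IPMK (siIPMK) and mitomycin C (MMC), a drug that crosslinks DNA, and the second received the control siRNA and MMC. The third received siIPMK alone and the fourth the control siRNA alone. Each group holds 3 arrays, numbered as experiments 1 to 3, all cells were harvested 72 hours after transfection, and MMC was present for the last 24 hours. IPMK is the inositol polyphosphate multikinase. No probe carried its name, so its depletion could not be read from these arrays. The labels give one siRNA per target and do not say whether the experiments were separate cultures, so p-values measure the spread between these samples, which may be technical. The arrays read RNA of whole cultures, in which fewer cells of a type and less RNA per cell cannot be told apart, and only the cytoplasmic fraction was measured.

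Most secreted and membrane proteins enter the ER through the Sec61 channel, which the TRAP complex assists, and lose their signal peptide to signal peptidase. In the lumen the chaperone HSPA5 (BiP) binds unfolded chains under the control of J-domain partners and nucleotide exchange factors, lectin chaperones hold glycoproteins, and protein disulfide isomerases, recharged by the oxidase ERO1A, form disulfide bonds. Chains that fail to fold are returned to the cytosol for degradation. When unfolded chains accumulate, the unfolded protein response raises many of these genes through XBP1 and ATF6, which act in part through a promoter sequence called the ER stress element.

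Promoters of the members were read from RefSeq sequences (GRCh38.p14), from 250 bases before to 50 after each gene start, and 42 of the 45 genes were in that table, in 53 windows. The ER stress element, searched on both strands as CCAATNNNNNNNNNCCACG, occurred in 7 of these 42 genes (16.7%), against 25 of all 27305 genes in the table (0.0916%). The 7 were CALR, CANX, CRELD2, HSP90B1, HSPA5, PDIA6 and XBP1. The promoters of HSPA5 and XBP1 are printed because both hold this element while the transcripts changed in opposite directions after depletion. Each covers the 250 bases before the start, at chr9:125241344-125241593 for HSPA5 and chr22:28800570-28800819 for XBP1, both from the minus strand, with the fixed bases of the element in capitals.
HSPA5: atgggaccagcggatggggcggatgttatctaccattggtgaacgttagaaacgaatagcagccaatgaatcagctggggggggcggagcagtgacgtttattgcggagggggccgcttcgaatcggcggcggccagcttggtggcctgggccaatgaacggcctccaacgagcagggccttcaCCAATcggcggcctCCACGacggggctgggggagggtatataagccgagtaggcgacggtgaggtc
XBP1: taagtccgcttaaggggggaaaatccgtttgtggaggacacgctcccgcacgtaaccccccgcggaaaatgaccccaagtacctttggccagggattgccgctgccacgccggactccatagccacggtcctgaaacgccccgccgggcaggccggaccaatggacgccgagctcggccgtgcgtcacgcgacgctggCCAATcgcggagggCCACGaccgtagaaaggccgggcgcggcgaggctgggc
The element begins 66 bases before the start in HSPA5 and 52 before it in XBP1. The sites of the other carriers follow, to show the same fixed ends around different centres, read on the gene's strand in CANX, PDIA6 and the first HSP90B1 site and on the opposite strand in the rest.
CANX: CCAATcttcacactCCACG
PDIA6: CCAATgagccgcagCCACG
HSP90B1, first site: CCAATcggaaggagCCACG
HSP90B1, second site: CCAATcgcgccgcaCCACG
CALR: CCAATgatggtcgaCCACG
CRELD2: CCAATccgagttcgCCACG
They lie at chr5:179698778-179698796, chr2:10812853-10812871, chr12:103930216-103930234, chr12:103930321-103930339, chr19:12938384-12938402 and chr22:49918554-49918572, in the order printed. A second ER stress element, ATTGG followed by any base and then CCACG, was found in 3 of the 42 genes (7.14%, against 0.0696% of all genes), namely HYOU1 with 2 sites, SDF2L1 and HERPUD1. The sequence TGACGTG, the unfolded protein response element, was in 7 genes (16.7%, against 2.40% of all genes), which were DNAJC10, HYOU1, SEC61A1, SEC62, SSR3, SSR4 and TXNDC5. In HYOU1 it overlapped one of the second elements. A match describes letters in a window and does not show that a factor binds there.

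The number of detected probes ran from 12122 to 13458 over the arrays, and a probe had a median of 20 or 21 beads. In a principal component analysis the first component held 67.5% of the variance and separated the siRNAs, but both siIPMK arrays of experiment 1 stood apart from the other siIPMK arrays. On that axis they lay at 11.97 with MMC and 6.64 without, the other 4 siIPMK arrays between 32.2 and 38.4, and the control arrays between -30.4 and -22.7. Counts of calls, class medians and the calls that change are also given without them. Cal51 markers were present, with KRT8, KRT18, KRT19, EPCAM, CD24, CD44 and VIM detected on all 12 arrays. Of these 7 markers 5 rose after depletion both with and without MMC, with list medians of 0.63 and 0.67 (log2), and their part in the results below was not tested. Of 7 fibroblast and endothelial markers 3 were measured, COL1A2 and PDGFRB with detection on all 12 arrays and PECAM1 on 11, and 0 were called. COL1A1 and VWF were each detected on 1 array, and leukocyte markers were not analysed here.

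After IPMK depletion more of the ER genes were higher than lower. With MMC 18 of the 38 rose (47.4%) and 2 fell (5.26%), where 20.8% of all measured genes rose and 20.4% fell. Without MMC 15 rose (39.5%) and 3 fell (7.89%), against 20.4% and 19.9% of all genes. A rise or fall is a limma moderated test at a Benjamini-Hochberg adjusted p under 0.05 over all 9409 genes, and every adjusted p of a depletion change below comes from that test. Calls on a gene's second probe come from the same test run on all 13830 probes that met the detection filter, adjusted over those probes. The median log2 change of the 38 was 0.53 with MMC, against 0.01 over all genes, and 0.40 without MMC, against 0.00. The siIPMK and control arrays had no overlap in signal for 17 of the 38 with MMC, against 49.4% of all genes, and for 21 without, against 52.2%. Among the 33 detected on all 12 arrays, 17 rose and 2 fell with MMC, against 20.3% and 22.3% of all genes so detected. Without MMC 14 of them rose and 2 fell, against 19.3% and 21.8%. In the mean of both depletion effects 25 rose and 3 fell, against 29.4% and 28.5% of all genes. That mean takes arrays with and without MMC as independent. Same-numbered arrays of one siRNA deviated together, so its counts may be too high.

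The 13 genes that rose both with and without MMC were DERL1, DNAJB9, DNAJC3, EDEM1, EDEM2, ERO1A, P4HB, PDIA4, SEC61B, SSR1, SSR4, TXNDC5 and XBP1. CANX, DERL2, DNAJC10, HYOU1 and SPCS3 passed as rises with MMC and did not pass without it, and SEC61A1 and SIL1 did the reverse. HSPA5 and MANF fell in both, and SEC62 passed as a fall without MMC. The remaining 15 passed in neither. Whether a depletion effect differed between cells with and without MMC was tested as the difference of the MMC changes, and 0 of the 38 genes passed (limma, lowest adjusted p = 0.999, 1 gene at an unadjusted p under 0.05). Of all 9409 genes 0 passed as well, so the result is not particular to the members. At an unadjusted p under 0.05 stood 2.63% of the members and 3.48% of all genes. Both depletion comparisons use separate arrays. Same-numbered arrays of one siRNA deviated together, however, so a call in both is not independent agreement.

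**Figure D1:**
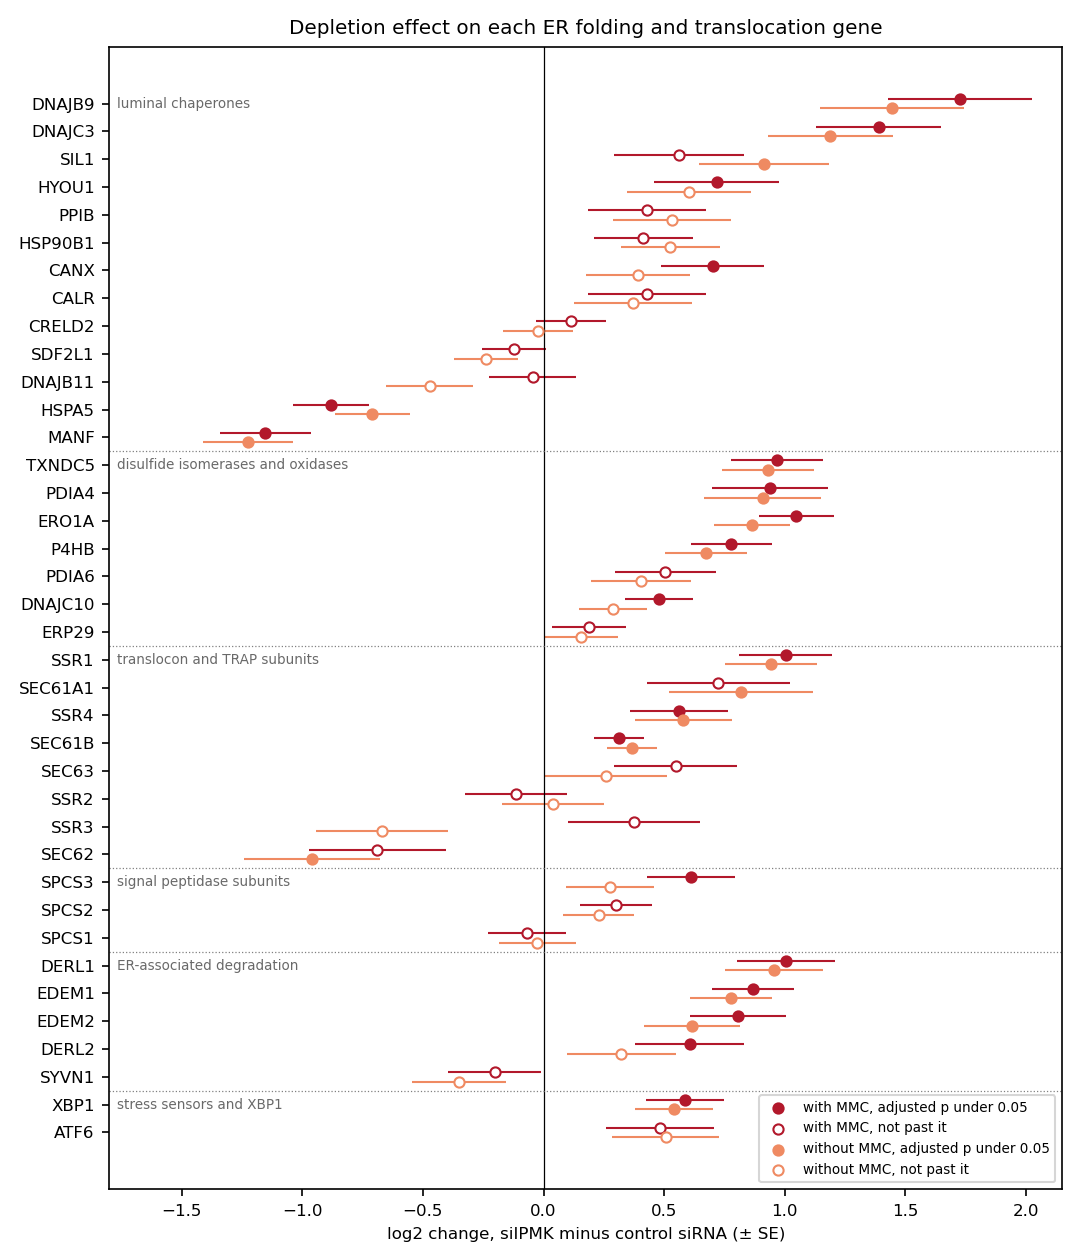
Depletion effect on each of the 38 measured genes, as the log2 change of siIPMK over control siRNA with its standard error (n = 3 arrays per group), with MMC (dark red) and without (orange), grouped by role from top to bottom. Filled points have a limma adjusted p under 0.05. DNAJB9 lies furthest right at 1.73 with MMC and MANF furthest left at -1.23 without MMC.

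Among the luminal chaperones and their partners, 4 of 13 rose with MMC and 2 fell, and 3 rose and 2 fell without it, with median changes of 0.43 and 0.39. As shares, 30.8% and 23.1% rose, against 20.8% and 20.4% of all genes, and 15.4% fell in both, against 20.4% and 19.9%. The class held the largest rise and the largest fall of all 38 genes. DNAJB9, a J-domain partner of HSPA5 also called ERdj4, had log2 signals of 9.41, 10.34 and 10.16 in experiments 1 to 3 with siIPMK and MMC, against 8.43, 8.45 and 7.84 with control siRNA and MMC. Without MMC the signals were 9.09, 10.33 and 10.10 with siIPMK, against 8.55, 8.54 and 8.09 with control siRNA. The groups did not overlap in either comparison, and the siIPMK array of experiment 1 was the lowest of its group in both. DNAJB9 rose by 1.73 ± 0.30 with MMC (log2 ± SE, 3.31-fold, adjusted p = 6.37e-04) and by 1.45 ± 0.30 without it (2.72-fold, adjusted p = 0.00196).

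DNAJC3, the J-domain partner also called p58IPK, read 7.42, 7.81 and 7.54 with siIPMK and MMC, against 6.45, 5.89 and 6.26 with control siRNA and MMC. Its signals without MMC were 7.15, 7.94 and 7.77 with siIPMK and 6.94, 6.43 and 5.92 with control siRNA. Again there was no overlap, but the probe was dim, detected on all 6 siIPMK arrays and on 1 of 3 control arrays in each condition. Its rises of 1.39 ± 0.26 (adjusted p = 0.00102) with MMC and 1.19 ± 0.26 (adjusted p = 0.00277) without MMC were smaller in the values processed by the authors, at 0.62 and 0.55, and still passed. It met the detection filter through the siIPMK arrays, and with undetected arrays raised to the lowest signal among their detected probes the differences were 1.13 and 0.91. SIL1, a nucleotide exchange factor of HSPA5, rose by 0.92 ± 0.27 without MMC (adjusted p = 0.0153) and was at 0.56 ± 0.27 with it (adjusted p = 0.108). Its second probe passed in both, at 0.77 without MMC and 0.65 with it. HYOU1, the large chaperone GRP170 with the same exchange activity, rose by 0.72 ± 0.26 with MMC (adjusted p = 0.0382), although its groups overlapped. Without MMC it was at 0.60 ± 0.26 (adjusted p = 0.0756). The second HYOU1 probe passed in both, at 0.81 with MMC and 0.82 without.

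HSPA5 itself, the central chaperone of the lumen, was lower. Its log2 signals were 6.48, 6.88 and 6.69 with siIPMK and MMC, against 7.67, 7.58 and 7.45 with control siRNA and MMC. Without MMC they were 6.81, 7.07 and 6.96 with siIPMK, against 7.88, 7.53 and 7.55 with control siRNA. All 6 siIPMK arrays lay below all 6 control arrays. HSPA5 fell by 0.88 ± 0.16 with MMC (adjusted p = 7.52e-04) and by 0.71 ± 0.16 without it (adjusted p = 0.00297). The single probe named HSPA5 was dim, with intensities between 170 and 295 where the array medians ran from 92.9 to 109.7, although it was detected on all 12 arrays. Which HSPA5 transcript it targets was not checked here, so the fall is that of this probe. The size of the fall depended on the background treatment: it was 0.43 with MMC and 0.37 without in the authors' processed values, and 0.53 and 0.45 without background correction, and it passed in each.

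MANF, a small secreted ER protein that binds HSPA5, fell most. It read 10.91, 10.55 and 10.37 with siIPMK and MMC and 12.06, 11.78 and 11.44 with control siRNA and MMC. In cells without MMC the signals were 11.08, 10.58 and 10.63 with siIPMK and 12.25, 11.95 and 11.77 with control siRNA. Every siIPMK array lay below every control array here as well, those of experiment 1 included. The fall was 1.15 ± 0.19 with MMC (2.22-fold lower, adjusted p = 4.37e-04) and 1.23 ± 0.19 without MMC (2.34-fold lower, adjusted p = 2.37e-04).

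Several chaperones best known as products of the same stress response did not pass with all arrays in the fit. HSP90B1, the luminal HSP90 also called GRP94, read 12.58, 13.32 and 13.48 with siIPMK and MMC and 12.81, 12.75 and 12.59 with control siRNA and MMC. Its signals without MMC were 12.99, 13.61 and 13.37 with siIPMK and 12.99, 12.90 and 12.51 with control siRNA. The siIPMK arrays of experiments 2 and 3 lay above all control arrays, and that of experiment 1 lay at or below the level of its own control. Its changes were 0.41 ± 0.20 with MMC (adjusted p = 0.118) and 0.53 ± 0.20 without (adjusted p = 0.0531). Without the siIPMK array of experiment 1 HSP90B1 passed as a rise, at 0.69 in both conditions (adjusted p = 0.00269 with MMC and 0.0151 without), and with array weights it also passed, at 0.62 and 0.64. Without the siIPMK array of experiment 3 the change with MMC was 0.24.

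CALR, the lectin chaperone calreticulin, read 9.46, 10.14 and 9.90 with siIPMK and MMC and 9.90, 9.41 and 8.90 with control siRNA and MMC. In untreated cells CALR read 9.64, 10.08 and 9.90 with siIPMK and 9.89, 9.47 and 9.15 with control siRNA. The groups overlapped in both conditions, and the changes were 0.43 ± 0.24 (adjusted p = 0.174) with MMC and 0.37 ± 0.24 (adjusted p = 0.24) without. With MMC CALR passed without the control array of experiment 1, at 0.68 (adjusted p = 0.0429). CANX, the membrane-bound lectin calnexin, rose by 0.70 ± 0.21 with MMC (adjusted p = 0.0178) and was at 0.39 ± 0.21 without it (adjusted p = 0.158), and its second probe, at 0.40 and 0.47, passed in neither.

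SDF2L1, a partner of the J-domain protein DNAJB11, read 11.62, 12.04 and 12.04 with siIPMK and MMC and 12.11, 12.07 and 11.88 with control siRNA and MMC. Without MMC its signals were 11.93, 11.97 and 11.73 with siIPMK and 12.32, 12.08 and 11.94 with control siRNA. The arrays overlapped, and the changes of -0.12 ± 0.13 (adjusted p = 0.481) and -0.24 ± 0.13 (adjusted p = 0.168) with and without MMC did not pass. DNAJB11 was at -0.04 ± 0.18 and -0.47 ± 0.18 and CRELD2, an ER stress-inducible protein of the lumen, at 0.12 ± 0.15 and -0.02 ± 0.15, in the same order. PPIB, the prolyl isomerase cyclophilin B, was at 0.43 ± 0.25 and 0.53 ± 0.25, with detection on all 6 siIPMK arrays and on 1 of 3 control arrays in each condition. None of these 3 passed.

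**Figure D2:**
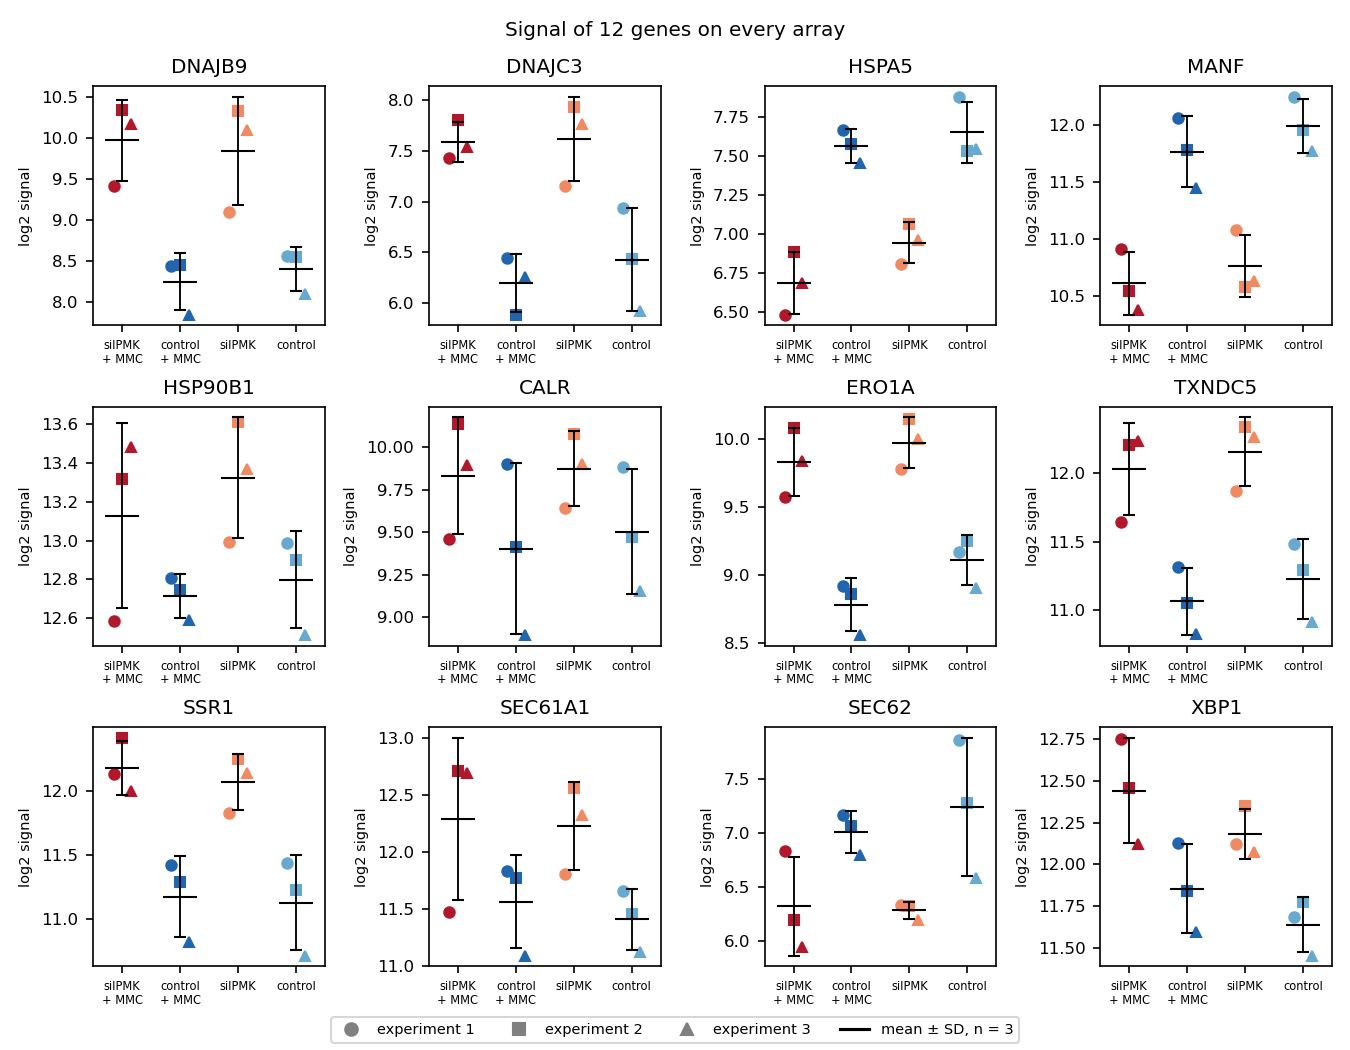
Log2 signal of 12 genes on each of the 12 arrays, by group, with the group mean and standard deviation (n = 3) in black and the experiment number as the symbol. The axes differ between panels. HSPA5, MANF and ERO1A show all siIPMK arrays on one side of all control arrays, whereas the siIPMK circles of experiment 1 lie near the control level for HSP90B1, CALR and SEC61A1.

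None of the disulfide isomerases and oxidases fell. With MMC 5 of 7 rose and 0 fell, and without MMC 4 rose and 0 fell, with median changes of 0.78 and 0.67, and all 7 were above 0 in both. The shares that rose, 71.4% and 57.1%, stand beside 20.8% and 20.4% of all genes. ERO1A, the oxidase that recharges the isomerases, read 9.57, 10.08 and 9.84 with siIPMK and MMC, against 8.92, 8.86 and 8.56 with control siRNA and MMC. Without MMC it read 9.78, 10.14 and 10.00 with siIPMK, against 9.17, 9.25 and 8.90 with control siRNA. No siIPMK array reached down to a control array, and the rise was 1.05 ± 0.16 with MMC (2.07-fold, adjusted p = 2.55e-04) and 0.86 ± 0.16 without (1.82-fold, adjusted p = 8.14e-04).

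TXNDC5, an isomerase also called ERp46, read 11.65, 12.21 and 12.24 with siIPMK and MMC and 11.32, 11.05 and 10.82 with control siRNA and MMC. Without MMC the signals were 11.87, 12.34 and 12.26 with siIPMK and 11.48, 11.29 and 10.91 with control siRNA. The groups were separate in both conditions, and TXNDC5 rose by 0.97 ± 0.19 (adjusted p = 0.00141) and 0.93 ± 0.19 (adjusted p = 0.00184) with and without MMC. Its second probe did not pass, at 0.07 with MMC and 0.46 without, and with both probes averaged the change with MMC was 0.52 (adjusted p = 0.0636). PDIA4, the isomerase ERp72, read 7.42, 8.28 and 8.03 with siIPMK and MMC and 7.25, 6.80 and 6.87 with control siRNA and MMC. It read 7.52, 8.45 and 7.95 with siIPMK and 7.10, 7.19 and 6.91 with control siRNA in the absence of MMC. The siIPMK arrays lay above the controls of their condition, closest in experiment 1. PDIA4 rose by 0.94 ± 0.24 with MMC (adjusted p = 0.00696) and by 0.91 ± 0.24 without it (adjusted p = 0.00883), and by 0.52 in both in the authors' processed values. Without the untreated siIPMK array of experiment 2 the rise without MMC did not pass (adjusted p = 0.0539).

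P4HB, protein disulfide isomerase itself, read 12.26, 12.41 and 12.39 with siIPMK and MMC and 11.98, 11.51 and 11.23 with control siRNA and MMC. Without MMC its signals were 12.07, 12.37 and 12.14 with siIPMK and 11.76, 11.56 and 11.24 with control siRNA. The lowest siIPMK signal lay above the highest control signal in each condition, and the rise was 0.78 ± 0.17 (adjusted p = 0.00269) with MMC and 0.67 ± 0.17 (adjusted p = 0.00662) without. DNAJC10, the reductase ERdj5, rose by 0.48 ± 0.14 with MMC (adjusted p = 0.0142) and was at 0.29 ± 0.14 without (adjusted p = 0.114). PDIA6, at 0.51 ± 0.21 and 0.40 ± 0.21 with and without MMC, and ERP29, a noncatalytic relative at 0.19 ± 0.15 and 0.16 ± 0.15, passed in neither.

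Translocon and TRAP subunits were called in both directions without MMC. With MMC 3 of 8 rose and 0 fell, and without MMC 4 rose and 1 fell, with median changes of 0.46 and 0.31. The shares that rose were 37.5% and 50%, against the same 20.8% and 20.4%. SSR1, the alpha subunit of TRAP, read 12.13, 12.41 and 12.0002 with siIPMK and MMC, against 11.42, 11.29 and 10.82 with control siRNA and MMC. In untreated cells it read 11.83, 12.25 and 12.14 with siIPMK, against 11.44, 11.22 and 10.72 with control siRNA. Its groups did not overlap, and it rose by 1.00 ± 0.19 (adjusted p = 0.00119) and 0.94 ± 0.19 (adjusted p = 0.00179), the largest rise of the class in each condition.

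SEC61A1, the channel-forming subunit, read 11.47, 12.71 and 12.70 with siIPMK and MMC, against 11.84, 11.77 and 11.10 with control siRNA and MMC. Without MMC the values were 11.81, 12.56 and 12.33 with siIPMK, against 11.66, 11.46 and 11.13 with control siRNA. With MMC the siIPMK array of experiment 1 lay among the controls, and the other siIPMK arrays lay above them. The change of 0.73 ± 0.30 with MMC did not pass (adjusted p = 0.0643), while without MMC SEC61A1 rose by 0.82 ± 0.30 (adjusted p = 0.0405). Without the siIPMK array of experiment 1 the change with MMC was 1.14 and passed (adjusted p = 8.66e-04). The rise without MMC was not called when either array of experiment 2 or 3, siIPMK or control, was left out (0.66 to 0.84, adjusted p between 0.0836 and 0.153). SEC61B, the small beta subunit, read 13.59, 13.44 and 13.42 with siIPMK and MMC, against 13.07, 13.26 and 13.17 with control siRNA and MMC. Without MMC it read 13.39, 13.40 and 13.53 with siIPMK, against 12.83, 13.22 and 13.17 with control siRNA. The groups were separate, and the rises were the smallest called in the class, 0.31 ± 0.10 (adjusted p = 0.0256) with MMC and 0.37 ± 0.10 (adjusted p = 0.0122) without. Neither passed with either median scaling in place of quantile normalization.

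SSR4, the delta subunit of TRAP, rose by 0.56 ± 0.20 with MMC (adjusted p = 0.038) and by 0.58 ± 0.20 without (adjusted p = 0.034), and neither rise passed with median scaling over the measured probes. SSR2, the beta subunit, was at -0.11 ± 0.21 and 0.04 ± 0.21, while its second probe rose by 0.87 with MMC and 0.62 without, so the direction of SSR2 depended on the probe. SSR3, the gamma subunit, read 6.14, 6.03 and 6.87 with siIPMK and MMC, against 6.23, 5.63 and 6.04 with control siRNA and MMC. Without MMC it read 5.95, 6.45 and 5.62 with siIPMK, against 6.92, 6.35 and 6.76 with control siRNA. The groups overlapped in both conditions. The probe was detected on 1 of 3 arrays in each siIPMK group, on none of the control arrays with MMC and on 2 of 3 without MMC, and neither depletion change passed (adjusted p = 0.289 with MMC and 0.0652 without).

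SEC62, which with SEC63 serves substrates imported after translation, was the translocon gene that fell. Its mean log2 signal was 6.32 ± 0.46 with siIPMK and MMC and 7.01 ± 0.19 with control siRNA and MMC (SD, n = 3 each), and 6.28 ± 0.08 with siIPMK and 7.24 ± 0.64 with control siRNA without MMC. It fell by 0.96 ± 0.28 without MMC (adjusted p = 0.0152) and was at -0.69 ± 0.28 with MMC (adjusted p = 0.0638). The probe was detected on all 6 control arrays, on 1 siIPMK array with MMC and on 2 without, and the fall was 0.44 in the authors' processed values. SEC63, a membrane J-domain protein, was not detected on any control array. Without MMC its siIPMK mean lay 1.02-fold above the lowest signals among detected probes of the control arrays, and no size can be given with MMC. In experiment 2 without MMC SEC63 was lower with siIPMK, at -0.37, so no direction is given, and it passed in neither. For this bound and those below, the brighter group's mean was set against the lowest signal among detected probes of each array.

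Taking the 20 measured chaperones and disulfide enzymes as folding genes, 9 rose and 2 fell with MMC and 7 rose and 2 fell without. Their median changes of 0.49 and 0.47 stood beside 0.46 and 0.31 for the 8 translocon genes. Each gene's signal was centred on its mean over the 12 arrays and averaged over the class on each array. Folding minus translocon was -0.12, 0.18 and 0.13 in experiments 1 to 3 with siIPMK and MMC, and -0.11, -0.03 and -0.04 with control siRNA and MMC. Without MMC it was -0.07, 0.23 and 0.15 with siIPMK and -0.09, -0.08 and -0.14 with control siRNA. In experiments 2 and 3 the folding genes stood higher relative to the translocon genes with siIPMK than on any control array, and in experiment 1 the siIPMK arrays lay within the control range. These class means include dim probes: SEC62, SEC63 and SSR3 were detected on 9, 3 and 4 of 12 arrays, and DNAJC3 and PPIB on 8. The class means were not recomputed without those genes, so the difference is not shown for genes detected on all 12 arrays. The order of both class medians depended on dim probes. Among genes detected on all 12 arrays the translocon median lay above the folding median in both conditions, at 0.58 against 0.40 without MMC.

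**Figure D3:**
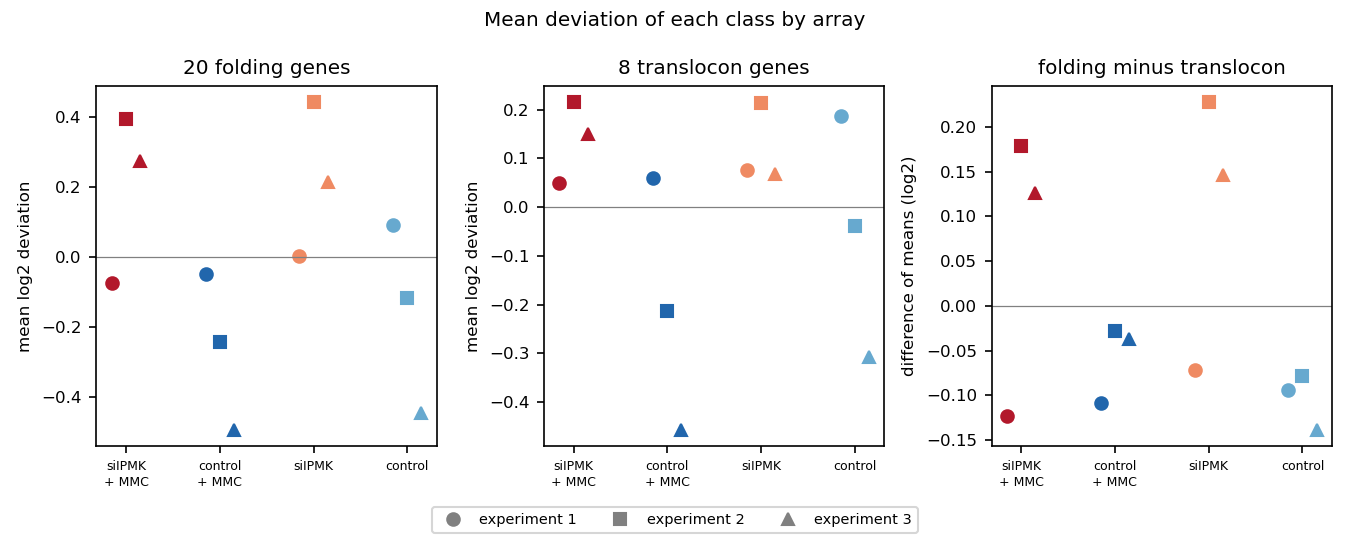
Mean log2 deviation of the 20 folding genes, of the 8 translocon genes, and the difference of both, on each array by group, with the experiment number as the symbol. Deviations are from each gene's mean over 12 arrays, and the translocon mean includes the dim SEC62, SEC63 and SSR3. In the right panel the siIPMK arrays of experiments 2 and 3 lie between 0.13 and 0.23, and those of experiment 1 lie below 0 with the controls.

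Signal peptidase, which removes signal peptides at the channel exit, was represented by 3 subunits. SPCS3 rose by 0.61 ± 0.18 with MMC (adjusted p = 0.0155) and was at 0.27 ± 0.18 without it (adjusted p = 0.245). SPCS2, at 0.30 ± 0.15 and 0.23 ± 0.15, and SPCS1, at -0.07 ± 0.16 and -0.03 ± 0.16 with and without MMC, passed in neither.

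Of the 5 measured ERAD components 4 rose with MMC and 3 without, and 0 fell, with median changes of 0.81 and 0.62, beside the same shares of all genes. DERL1, a membrane protein of the retrotranslocation complex, read 9.05, 9.70 and 9.40 with siIPMK and MMC, against 8.70, 8.44 and 7.99 with control siRNA and MMC. DERL1 without MMC read 9.40, 9.91 and 9.62 with siIPMK, against 8.94, 8.61 and 8.51 with control siRNA. All siIPMK arrays lay above all control arrays, and DERL1 rose by 1.01 ± 0.20 (adjusted p = 0.00173) and 0.96 ± 0.20 (adjusted p = 0.00241) with and without MMC. EDEM1, which recognises trimmed glycans on misfolded chains, read 7.97, 8.39 and 8.42 with siIPMK and MMC, against 7.64, 7.31 and 7.22 with control siRNA and MMC. Without MMC the signals were 7.74, 8.18 and 7.98 with siIPMK, against 7.34, 7.08 and 7.14 with control siRNA. It rose by 0.87 ± 0.17 (adjusted p = 0.00139) and 0.78 ± 0.17 (adjusted p = 0.00281), with no overlap within either condition. In the authors' processed values EDEM1 rose by 0.53 and 0.44.

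EDEM2, a mannosidase that starts this trimming, read 9.32, 9.84 and 9.91 with siIPMK and MMC, against 9.04, 9.07 and 8.54 with control siRNA and MMC. In untreated cells EDEM2 read 9.03, 9.62 and 9.48 with siIPMK, against 8.97, 8.70 and 8.60 with control siRNA. It rose by 0.81 ± 0.20 (adjusted p = 0.00541) and by 0.62 ± 0.20 (adjusted p = 0.0234), with no overlap, and the untreated siIPMK array of experiment 1 lay just above the highest control. DERL2, a relative of DERL1, passed as a rise with MMC at 0.61 ± 0.23 (adjusted p = 0.0443) with overlap, and was at 0.32 ± 0.23 without. Its other probe fell by 0.97 with MMC and by 0.98 without, and the mean of both probes with MMC was -0.18 (adjusted p = 0.358), so its direction was not settled. SYVN1, the ubiquitin ligase HRD1, was at -0.20 ± 0.19 and -0.35 ± 0.19 and passed in neither.

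XBP1, the transcription factor of the stress response whose message IRE1 splices, read 12.75, 12.46 and 12.12 with siIPMK and MMC, against 12.13, 11.84 and 11.60 with control siRNA and MMC. Without MMC it read 12.12, 12.35 and 12.07 with siIPMK, against 11.69, 11.77 and 11.46 with control siRNA. With MMC the lowest siIPMK array, of experiment 3, lay just under the highest control array, of experiment 1, and without MMC the groups were separate. XBP1 rose by 0.59 ± 0.16 with MMC (adjusted p = 0.0102) and by 0.54 ± 0.16 without (adjusted p = 0.0161), and its second probe rose by 0.54 and 0.75. Whether either probe separates spliced from unspliced XBP1 was not tested. ATF6, a sensor that is cleaved into a transcription factor, was at 0.48 ± 0.22 and 0.51 ± 0.22 and passed in neither (adjusted p = 0.0951 and 0.0812). Among the 7 genes whose promoter held the ER stress element, XBP1 and CANX rose and HSPA5 fell with MMC. Without MMC XBP1 rose and HSPA5 fell, and the other 5 did not pass.

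**Figure D4:**
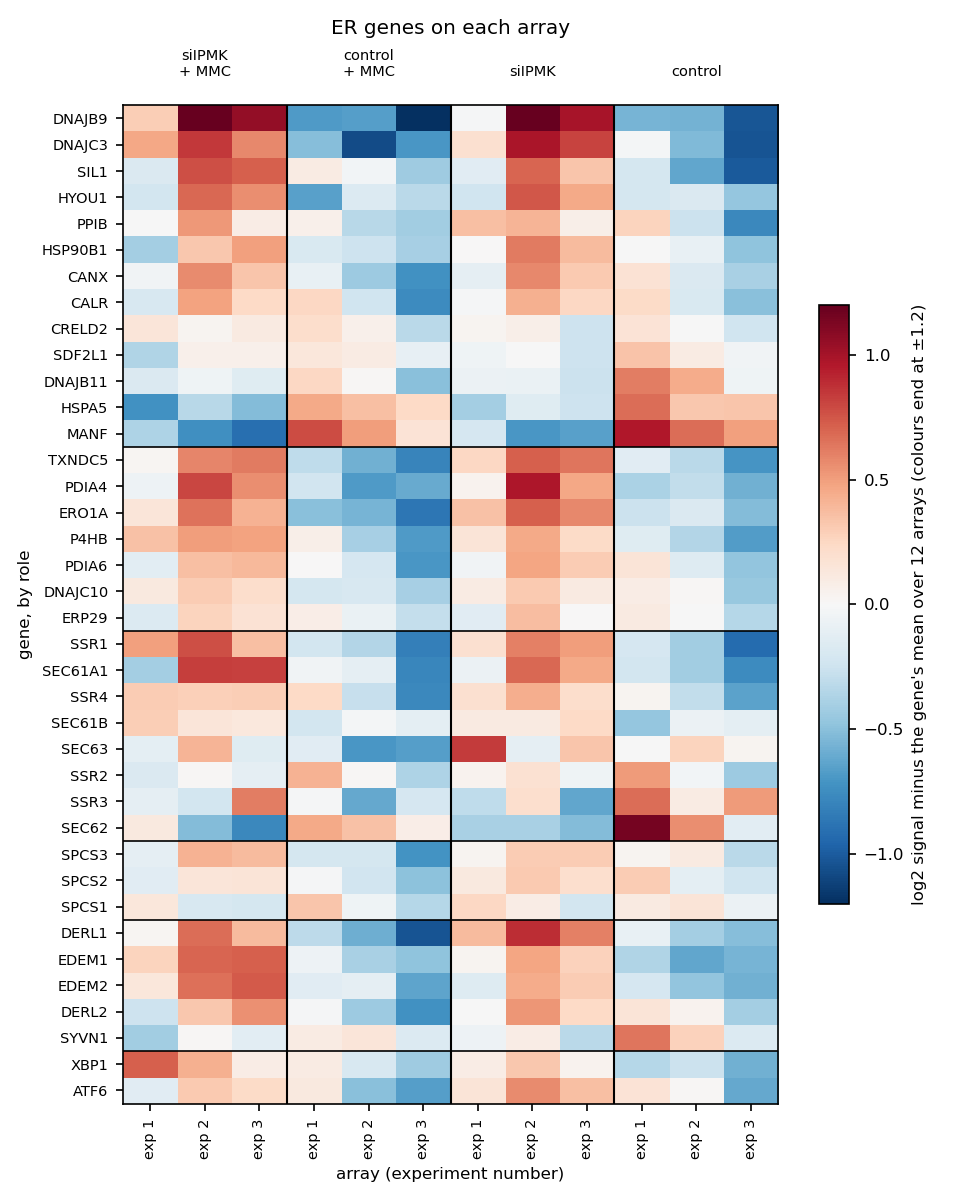
Log2 signal of each of the 38 genes on each array, as the difference from that gene's mean over 12 arrays, with genes grouped by role from luminal chaperones at the top to stress sensors and XBP1 at the bottom and arrays grouped by siRNA and MMC. Red is higher and blue lower, with colours ending at 1.2. HSPA5 and MANF run opposite to most genes, and the columns of siIPMK experiment 1 are paler than those of experiments 2 and 3.

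The median difference over the members was nearest 0 in experiment 1. Some genes differed most there, such as HSPA5 (-1.18 with MMC and -1.07 without) and SEC61B (0.52 and 0.56). The siIPMK minus control difference within each experiment had a median over the 38 genes of -0.07, 0.68 and 0.89 in experiments 1 to 3 with MMC, with 18, 29 and 35 genes higher. Without MMC the medians were 0.01, 0.59 and 0.73, with 20, 30 and 29 genes higher. Of the genes called as rises with MMC, 17 of the 18 were higher in experiment 1 and 18 of 18 in experiments 2 and 3. Without MMC 15 of 15 were higher in every experiment. These genes were called on the same arrays, so their shared direction is not separate evidence. Without MMC SIL1 lay at 0.08, 1.33 and 1.34, whereas MANF lay at -1.17, -1.37 and -1.14. Without both siIPMK arrays of experiment 1, 26 genes rose and 3 fell with MMC, against 27.6% and 25.8% of all genes, and 20 rose and 4 fell without MMC, against 27.1% and 26.6%. No call was lost. With MMC the calls gained were rises of HSP90B1, CALR, SIL1, PDIA6, SEC61A1, SEC63, SPCS2 and ATF6 and a fall of SEC62, of which HSP90B1 (0.69), SIL1 (0.87) and SEC61A1 (1.14) moved by over 1.5 times. SEC63 was undetected in controls, so its gained call rests on values below detection there. Without MMC the gains were rises of HSP90B1, CANX, HYOU1, PDIA6 and ATF6 and a fall of DNAJB11. The folding median without those arrays was 0.68 with MMC and 0.56 without MMC, and the translocon median 0.52 and 0.22.

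**Figure D5:**
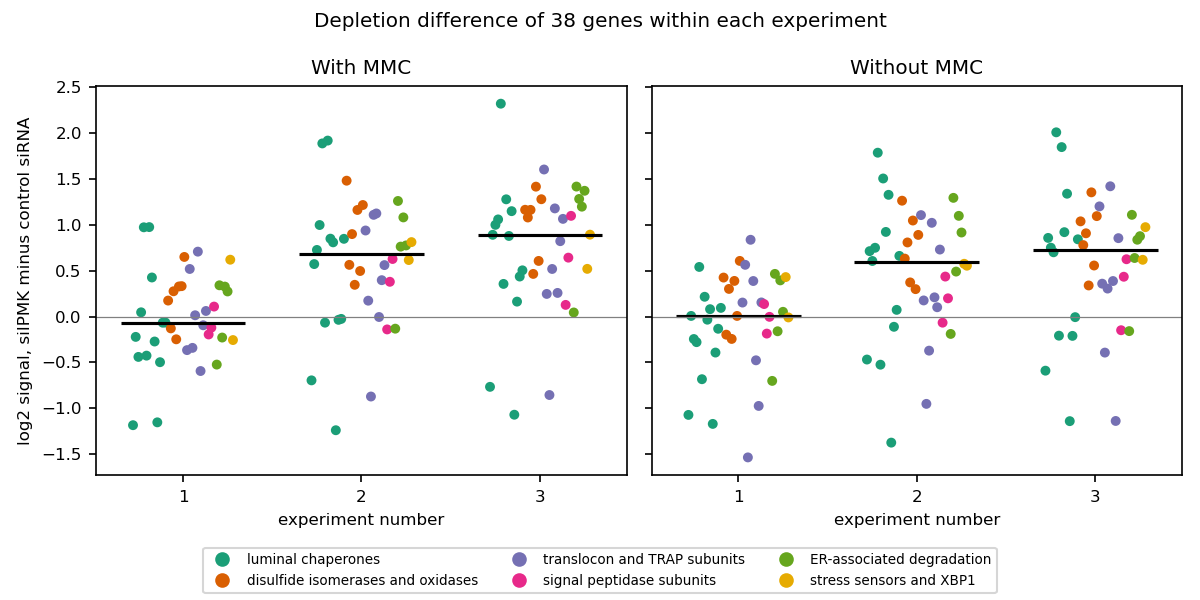
Difference of siIPMK from control siRNA in log2 signal for each of the 38 genes within each experiment, with MMC (left) and without (right), coloured by role, with a black bar at the median. The median bars lie near 0 in experiment 1 and between 0.59 and 0.89 in experiments 2 and 3.

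Each array was left out in turn. With MMC 10 of the 18 rises passed with any one array left out: DNAJB9, DNAJC3, PDIA4, P4HB, TXNDC5, ERO1A, SSR1, DERL1, EDEM1 and EDEM2. Without MMC 8 of the 15 did, the same names except PDIA4 and EDEM2, and the falls of HSPA5 and MANF passed throughout. The counts themselves moved. With MMC 10 genes rose without the control array of experiment 3, where 16.2% of all genes rose, and 12 without the siIPMK array of experiment 2, where 14.4% did. Without MMC 9 rose without the siIPMK array of experiment 2 (13.9% of all genes). There 10 rose and 5 fell without the control array of experiment 3 (16.3% and 14.9% of all genes). Scaling each array to its median over all probes shifted the median of all genes by 0.14 with MMC and 0.13 without, and 23 members rose and 2 fell with MMC, against 26.4% and 11.6% of all genes, and 21 rose and 4 fell without it, against 26.0% and 11.3%. With that scaling the share of all calls that were rises was 69.5% with MMC and 69.6% without, against 50.5% and 50.7% after quantile normalization.

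The MMC comparisons asked whether the drug alone moved these genes. Under siIPMK 0 of 38 passed (limma, 0 at an unadjusted p under 0.05, against 5.64% of all genes), and 0.351% of all genes rose and 0.0106% fell. Under control siRNA 0 of 38 passed in the same test (lowest adjusted p = 0.316), where 1.96% of all genes rose and 0.106% fell. There 3 members (7.89%) were at an unadjusted p under 0.05, against 11.2% of all genes. Arrays with the same experiment number and siRNA deviated together from their group means, so the comparison was also made within these pairs. Within pairs 4 members passed under control siRNA, where 6.17% of all genes rose and 3.92% fell. SIL1 rose by 0.49 ± 0.10 (limma, adjusted p = 0.00136), DNAJB11 fell by 0.42 ± 0.08 (adjusted p = 9.44e-04), ERO1A fell by 0.33 ± 0.09 (adjusted p = 0.0214) and DERL1 fell by 0.31 ± 0.10 (adjusted p = 0.0475). Under siIPMK the same genes were at 0.14, 0.01, -0.14 and -0.26 within pairs, and 0 members passed there or in the difference of the MMC changes. Of all genes 1.96% rose and 0.999% fell within pairs under siIPMK, and 0.117% and 0.521% in the difference. With MMC SSR3 was detected on none of the control arrays, where its level was at least 1.17-fold lower than in control siRNA cells without MMC, so no size can be given for its MMC changes beyond that bound.

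Genes that act around this machinery give the setting, from lists of genes that are not members. Counts in these lists stand beside 20.8% of all genes that rose and 20.4% that fell with MMC, and 20.4% and 19.9% without. Of 25 measured genes of ER exit and retrieval 16 rose (64.0%) and 2 fell (8.0%) with MMC, and 14 rose (56.0%) and 2 fell (8.0%) without, with medians of 0.46 and 0.38. KDELR3, a receptor that returns ER proteins from the Golgi, rose by 1.44 ± 0.21 with MMC and 1.45 ± 0.21 without, and SURF4, a cargo receptor, by 1.03 ± 0.22 and 0.96 ± 0.22. SEC23A, a subunit of the inner COPII coat, fell by 1.37 ± 0.27 with MMC and fell by 1.62 ± 0.27 without, and COPZ1, of the COPI coat, by 0.54 ± 0.09 and 0.48 ± 0.09. Of 23 collagen-modifying and other lumen enzymes 13 rose and 1 fell with MMC, and 11 and 1 without, with medians of 0.68 and 0.48. PLOD2, a lysyl hydroxylase of collagen, rose by 1.36 ± 0.22 and 1.65 ± 0.22, and CALU, a calcium-binding protein of the lumen, by 1.47 ± 0.32 and 1.43 ± 0.32, while its relative RCN2 fell by 1.49 ± 0.26 and 1.14 ± 0.26.

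Of 23 N-glycosylation genes 7 rose and 3 fell with MMC, and 6 and 1 without, with medians of 0.27 and 0.12. STT3A, a catalytic subunit of oligosaccharyltransferase, rose by 0.89 ± 0.20 and 0.79 ± 0.20. DDOST, of the same complex, rose without MMC by 0.56 ± 0.20 and was at 0.49 ± 0.20 with it, and DPM3, of dolichol-phosphate-mannose synthase, fell by 1.23 ± 0.21 and 1.09 ± 0.21. Of 22 genes of the signal recognition particle and membrane targeting 5 rose (22.7%) and 1 fell with MMC, and 3 and 3 (13.6% each) without, so the shares that rose were near or below those of all genes. TRAM1, a membrane protein beside the channel, rose by 0.55 ± 0.12 and 0.40 ± 0.12, and SRP72 fell by 0.82 ± 0.16 and 0.81 ± 0.16. SRP54 rose by 0.28 ± 0.11 without MMC and was at 0.14 ± 0.11 with it, and SRP9 fell by 0.37 ± 0.13 without MMC and was at -0.26 ± 0.13 with it.

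Of 20 further ERAD genes, cytosolic, membrane and luminal, 4 rose and 4 fell with MMC (20% each, near the shares of all genes), and 1 and 3 without. ERLEC1, an ER lectin, rose by 1.02 ± 0.17 and 1.10 ± 0.17, while UBE2J1, the ubiquitin-conjugating enzyme of the ER membrane, fell by 2.16 ± 0.29 and 2.07 ± 0.29 and the mannosidase EDEM3 by 0.73 ± 0.17 and 0.55 ± 0.17. Of 18 genes of the PERK and ATF4 arm 9 rose and 3 fell with MMC, and 9 and 6 without. These counts include EIF2AK3, which encodes PERK, and SLC7A11, the cystine transporter, which passed detection on none of the control arrays and met the detection filter through siIPMK arrays alone. Only bounds can be given for them: with siIPMK, EIF2AK3 was at least 1.19-fold higher with MMC and at least 1.26-fold higher without, and SLC7A11 at least 1.05-fold higher with MMC, with no size without it. Other listed genes shared this limit. SESN2 of this arm was undetected on the control arrays without MMC, and UGGT1 of the N-glycosylation list on every control array. FKBP10, of the lumen enzymes, was detected on 1 control array with MMC and on none without. PHGDH, of serine synthesis, fell by 1.40 ± 0.20 and 1.36 ± 0.20, and EIF2S1, the translation factor that PERK phosphorylates, by 0.76 ± 0.12 and 0.87 ± 0.12. Of 18 cytosolic heat shock chaperones 4 rose and 1 fell with MMC, and 4 and 3 without, with medians of 0.08 and 0.06. HSP90AA1, the cytosolic relative of HSP90B1, fell by 0.57 ± 0.08 and 0.49 ± 0.08, and the cochaperone BAG3 rose by 0.68 ± 0.23 and 0.80 ± 0.23. DNAJB4 rose by 0.65 ± 0.18 without MMC and was at 0.45 ± 0.18 with it, and CCT5, of the chaperonin, fell by 0.43 ± 0.14 without MMC and was at -0.29 ± 0.14 with it.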

How the data were processed

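Cytoplasmic RNA of 12 Cal51 samples was measured on Illumina arrays. Per the file headers, the deposited intensity table holds a mean intensity, a detection p-value, a bead standard error of that signal and a count of beads for each of 48802 probes. The authors' second table of 14853 probes holds log2-like values with an equal median of 8.823 per array. It was made with lumi, per the submitters' processing notes, and its settings are not given in the sources used here. The neqc function of limma 3.58.1 (R 4.3.3) was run on the intensities, with background parameters inferred from detection p-values, an offset of 16 and quantile normalization, and taken to log2. Probes detected at p under 0.01 on at least 3 arrays were kept (13830), and 12086 of them had 1 symbol in the platform annotation, updated through the RefSeq gene table. The probe of highest mean signal stood for each of 9409 genes, and no probe's level was compared with another's.

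Groups come from the sample titles. One linear model of 4 group means over the 12 arrays, with variances moderated along a trend in signal, gave each change and its standard error (n = 3 arrays per group), and Benjamini-Hochberg adjustment ran over all genes at 0.05. The steps were tested on simulated data. No 2 arrays held identical values. Same-numbered arrays of one siRNA deviated together from their group means (r of 0.70, 0.54 and 0.35 for siIPMK and 0.49, 0.19 and 0.42 for control siRNA), so MMC comparisons are also given within pairs. Bead standard errors for the members were between 3.68% and 8.91% of the intensity (medians over arrays). Arrays carry no read depth, and their number limits the precision.

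Alternatives were no background correction, 2 median scalings, the authors' values, other detection filters, probes averaged, blocks, array weights and arrays left out. Scaling to the median of kept probes was chosen after seeing the data. The members, gene lists and roles were chosen with earlier results of these data known. Every member could be named. Values on all 12 arrays are given for 10 measured genes fixed by name (HSPA5, HSP90B1, CALR, PDIA4, SDF2L1, DNAJB9, SEC61A1, SEC61B, SSR3 and XBP1) and for the 12 members of lowest p that passed without overlap. From each list of other genes up to 2 per direction are named, those of largest change that passed without overlap in the comparison without MMC. Motifs were searched by exact letters in RefSeq promoter windows. Protein sequences were not used here.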

Additional observations from a re-analysis of the deposited data

How the results depend on the processing

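Both siRNA groups carry one label each and 3 arrays, experiment 1 stands apart under siIPMK, and DNAJC3, PPIB, SEC62, SEC63, SSR3 and HSPA5 lie near the background, where sizes depend on its correction. HYOU1, PDIA4 and EDEM1 were also dim, with lowest intensities of 171, 183 and 204. Their rises with MMC were 0.42, 0.52 and 0.53 in the authors' values, and still passed. Among the 33 genes detected on all 12 arrays the median change was 0.56 with MMC and 0.41 without. The falls of HSPA5 and MANF passed in both comparisons under every alternative run. DERL2 with MMC reversed to -0.183 with its probes averaged. Arrays of different siRNAs share only an experiment number, with correlations of deviations of 0.09, 0.12 and 0.13 without MMC and 0.06, 0.20 and -0.02 with it. With that number as a replicate block, 19 members rose and 3 fell with MMC (24.0% and 23.0% of all genes) and 17 and 4 without (23.9% and 23.1%), and MMC lowered 37 of all genes under control siRNA and 2 under siIPMK. A slide block was not run, since the headers give no slide.

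With median scaling over all probes 1088 of all genes fell with MMC, 1065 without and 1680 in the mean effect, and 12 rose with MMC under siIPMK. With scaling over kept probes 5 members fell without MMC (24.8% of all genes) and 5 in the mean effect, and MMC lowered 16 genes under control siRNA. In the authors' values the translocon median with MMC was 0.239 and 1 gene fell in the difference of the MMC changes. With detection on all 12 arrays the translocon median was 0.58 without MMC and 0.571 in the mean effect, MMC lowered 6 genes under control siRNA and raised 20 under siIPMK, since fewer genes were tested.

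Within array pairs MMC raised 184 and lowered 94 genes under siIPMK, raised 581 and lowered 369 under control siRNA (1 member rose, 3 fell), and 11 rose and 49 fell in the difference. With array weights 28 members rose with MMC (29.8% of all genes), and 26 rose and 6 fell without (30.3% and 29.3%). MMC then raised 79 and lowered 24 genes under siIPMK and 406 and 128 under control siRNA, with 1 and 33 in the difference. Without both siIPMK arrays of experiment 1, MMC raised 17 genes under siIPMK, raised 354 and lowered 93 under control siRNA, and 15 fell in the difference. With single arrays left out, 10 to 23 members rose with MMC (14.4% to 25.0% of all genes). Without MMC 9 to 18 members rose (13.9% to 23.4%) and 2 to 5 fell (13.1% to 23.3%), and 3 to 5 fell in the mean effect. Of all genes 1236 to 2194 fell without MMC, MMC raised 12 to 30 and lowered 0 to 2 under siIPMK and raised 115 to 238 and lowered 0 to 29 under control siRNA, and 0 to 7 fell in the difference. The cause of these moves was not tested.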
